A study of Homo sapiens with 18 samples.

Results

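The genes described here are 34 genes of sterol and fatty acid synthesis, with their regulators and the genes that move or dispose of cholesterol, out of 61544 genes counted in BJ cells, a human skin fibroblast line. They are listed by gene symbol, with earlier results of these data known when the list was made, and each symbol was found once in both deposited count tables. The series concerns PURPL, a long noncoding RNA, and its part in senescence, in which cells stop dividing for good. In the knockdown experiment CRISPR interference, in which a guide brings a repressor to a gene's start, was used with a control guide (sgCtrl) or with either of a pair of guides against PURPL (sgRNA-PURPL#1 and sgRNA-PURPL#2, here guide 1 and guide 2). In the overexpression experiment a control culture (Ctrl) was set beside PURPL#1-OE and PURPL#2-OE (here line 1 and line 2). Each of the 6 groups held 3 libraries of poly(A) RNA. All groups share the BJ background, and the labels give no drug, time point or age of culture. The sources used here do not name the repressor, the guide sequences or the overexpression vector, nor whether cultures were clones or pools. Since nothing in the labels says that the 3 replicates of a group were cultured separately, the p-values speak only of the spread among these libraries, which could be technical. The molecule is labelled genomic DNA although the protocol starts from RNA, and the values are read here as RNA.

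Cells make cholesterol from acetyl-CoA through the mevalonate pathway and a long series of sterol intermediates, and fatty acids through acetyl-CoA carboxylase, fatty acid synthase, elongases and desaturases. Many of these enzymes are targets of the SREBP transcription factors, which SREBF1 and SREBF2 encode. SCAP carries the SREBP precursors from the endoplasmic reticulum to the Golgi for cleavage, INSIG1 and INSIG2 hold SCAP back when sterols are plentiful, and INSIG1 is itself an SREBP target. When sterols accumulate, LXR receptors switch on exporters such as ABCA1 and ABCG1 and the ubiquitin ligase MYLIP, also known as IDOL.

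Knockdown libraries held 11444513 to 12896040 counts each, and overexpression libraries 18858976 to 27985649. PURPL itself, the check of the labels, measured 71.1, 77.0 and 94.3 CPM (counts scaled to library size by the TMM method) with sgCtrl, 17.9, 15.2 and 14.1 with guide 1, and 19.0, 21.5 and 17.9 with guide 2. In the other table it measured 67.3, 66.7 and 59.2 CPM in Ctrl, 166, 178 and 176 in line 1, and 125, 129 and 114 in line 2. Both guides and both lines moved it in the labelled direction in every library. The library sgCtrl replicate 1 stood apart from its group: its counts differed from the other sgCtrl libraries by a chi-square of 6.76 and 10.3 per gene, against 4.14 between those and 2.43 to 3.20 within either guide. Libraries of different guides differed by 7.63 to 10.5 per gene. Without sgCtrl replicate 1, 15 members were called higher and 2 lower with guide 1, 2 higher and 7 lower with guide 2, and 18 lower and 0 higher with guide 2 than with guide 1. All 10 markers of fibroblasts lay above 1 CPM in every group, with a summed level of 15800 to 17100 CPM in the knockdown libraries, 23500 to 24000 in Ctrl and 28500 to 32100 in the lines. The 6 adipocyte markers, of interest because fat cells are rich in these enzymes, summed to 1.02 to 1.32 CPM with sgCtrl and 1.39 to 2.69 with the guides, and ADIPOQ was at 0 in every knockdown library. In the overexpression table they summed to 0.351 to 0.465 CPM in Ctrl and 0.41 to 1.02 in the lines. Mitochondrial transcripts took 5.06% to 5.45% of counts with guide 1, 4.78% to 4.99% with guide 2 and 4.46% to 5.14% with sgCtrl, while Ctrl had 4.26% to 4.80% and the lines had 4.97% to 6.24%. MKI67 is expressed in dividing cells. It measured 226 to 330 CPM with sgCtrl, 137 to 144 with guide 1 and 177 to 180 with guide 2. After overexpression MKI67 measured 360 to 393.5 CPM in Ctrl, 120 to 140 in line 1 and 121 to 148 in line 2. The part of these differences in the results below was not tested. In bulk RNA, fewer cells of a type and less RNA per cell cannot be told apart.

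Enough counts for a test were found for 32 of the 34 genes after knockdown and for 33 after overexpression. EBP, a sterol isomerase, had 0 counts in all 18 libraries; 99.9% of its span is also covered by another gene of the same strand. A count of 0 allows up to 3 counts, or 0.107 to 0.262 CPM, per library, counting error only. For EBP this sets no limit on expression, because reads in the span shared with another gene may not have been counted. CYP51A1, the sterol 14-demethylase, overlaps such genes over 45.5% of its span and had 23, 27 and 12 counts over the 3 libraries of sgCtrl, guide 1 and guide 2, too few for a test there. In all, 10 of the 34 overlap a same-strand gene to some extent, and their counts are uncertain because the handling of shared reads is not given in what was read here. Overlaps on the opposite strand, which FADS1, FADS2 and others have, were not counted in the 10, and the strand setting is not stated either. The tables give each gene's whole span as its length, so levels are compared between groups and not between genes.

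With guide 1, 16 of 32 measured genes rose, from HMGCS1 at the entry of the mevalonate pathway to the desaturases SCD and FADS1. They passed edgeR's quasi-likelihood test upward (adjusted p below 0.05 over all genes) and 0 members passed downward. Over all 13923 genes tested 11.6% were called higher and 12.9% lower. At an unadjusted p below 0.05 the members numbered 17 higher and 3 lower, and DESeq2 called 13 higher and 0 lower, with DHCR7, SC5D and MVD not called (adjusted p = 0.0522 to 0.11). The median log2 difference of the 32 was 0.21, against 0.00374 over all genes. By role, 9 of 15 enzymes of sterol synthesis, 5 of 7 of fatty acid synthesis, 1 of 5 regulators and 1 of 5 transport genes rose. Leaving out sgRNA-PURPL#1 replicate 3 brought the 16 down to 10, because FDPS, ACAT2, DHCR7, SC5D, MVD and FASN no longer passed (adjusted p = 0.0608 to 0.149). Leaving out sgCtrl replicate 1 brought 2 members past the test downward, and leaving out sgCtrl replicate 3 or sgRNA-PURPL#1 replicate 2 brought 1. Among members with a mean of at least 10 CPM, 15 of 28 rose and 0 fell, beside 14.1% and 15.1% of genes at that level.

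With guide 2, 3 of 32 members rose (9.38%) and 7 fell (21.9%), against 11.9% and 12.4% of all genes. The median was -0.08 (all genes -0.00141), and the share that rose lay near that of all genes. The 3 that rose were ABCA1, ACACA and HMGCS1, which rose with guide 1 too, and the 7 that fell were SREBF2, INSIG1, LSS, FASN, ELOVL6, NPC1 and MYLIP. FASN and INSIG1 were thus called higher with guide 1 and lower with guide 2. These counts are small and moved with single libraries: 3 fell without sgCtrl replicate 2 or without sgRNA-PURPL#2 replicate 2, 4 without sgRNA-PURPL#2 replicate 1, and 1 rose without any of the 3 guide 2 libraries in turn.

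**Figure D1:**
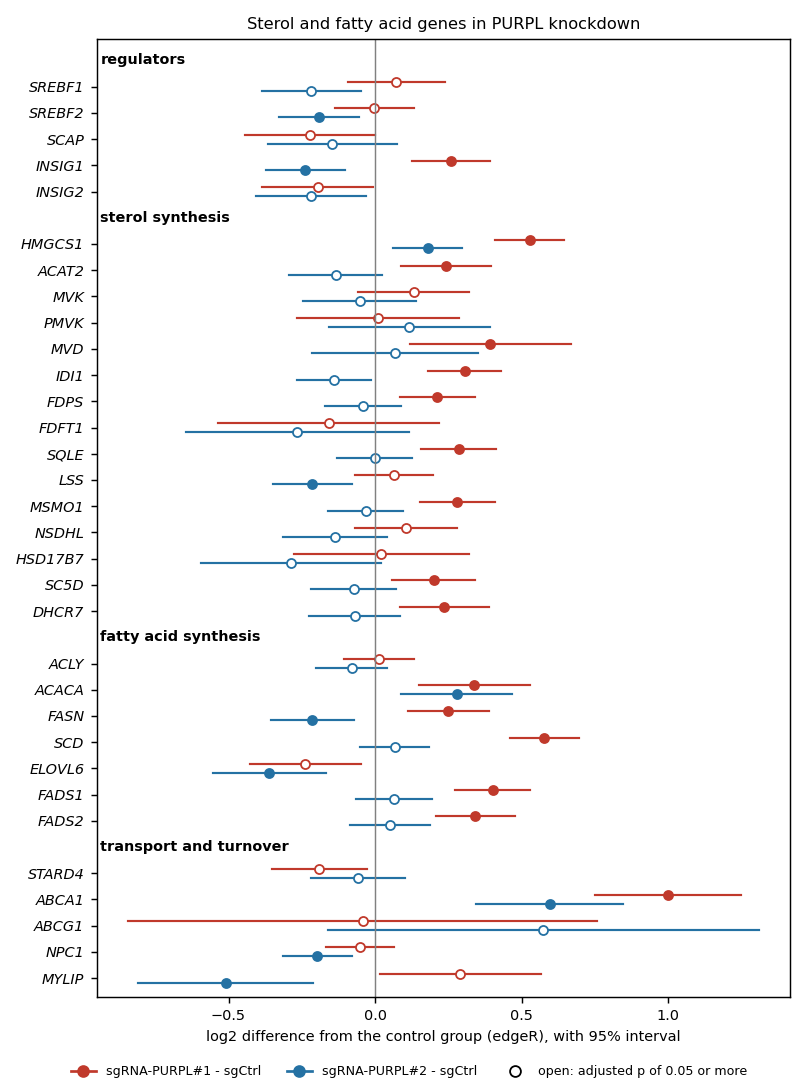
Log2 difference of each member from sgCtrl with sgRNA-PURPL#1 and sgRNA-PURPL#2 (x axis, points with 95% intervals from edgeR), ordered by role (y axis), with open points where the adjusted p was 0.05 or more. Most guide 1 points of the synthesis enzymes lie right of 0, and those of guide 2 lie to their left.

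The difference between the guides was tested directly. Of 32 members 17 were lower with guide 2 than with guide 1 and 0 were higher, whereas 3.74% of all genes were called lower and 5.51% higher. At an unadjusted p below 0.05 the numbers were 22 lower and 0 higher, and DESeq2 gave 16 and 0, without SREBF1. The median was -0.28 (all genes 0.000452), and 28 of the 32 differences were negative. In 23 of 32 members every guide 2 library lay below every guide 1 library, which held for 13.6% of all genes, and in ABCG1 and STARD4 every guide 2 library lay above (14.8% of all genes). Among members with a mean of at least 10 CPM, 16 of 28 were lower and 0 higher, beside 4.99% and 6.26% of the 8750 genes at that level. The 17 were 9 of 15 sterol enzymes (HMGCS1, ACAT2, IDI1, FDPS, SQLE, LSS, MSMO1, SC5D and DHCR7), 4 of 7 fatty acid enzymes (FASN, SCD, FADS1 and FADS2), the regulators SREBF1 and INSIG1, and the transport genes ABCA1 and MYLIP.

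Against sgCtrl, 14 of these 17 rose with guide 1. With guide 2, 11 of the 17 were not called, 4 fell (FASN, INSIG1, LSS and MYLIP) and 2 rose less far (ABCA1 and HMGCS1). Both guide comparisons with sgCtrl share its libraries, so they are not independent. The direct comparison shares the guide 1 libraries with guide 1 against control, so those calls are not independent either. PURPL itself did not differ between the guides past the threshold (log2 0.30 ± 0.119 SE, adjusted p = 0.128, 95% interval 0.06 to 0.55). Its lowest guide 2 library, at 17.93 CPM, nevertheless lay just above its highest guide 1 library, at 17.89 CPM. The mitochondrial share did not overlap between the guides, and total counts did (11444513 to 12886456 with guide 1, 11978001 to 12896040 with guide 2). Leaving out any 1 library left 12 to 18 members lower, the 12 without sgRNA-PURPL#1 replicate 2.

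**Figure D2:**
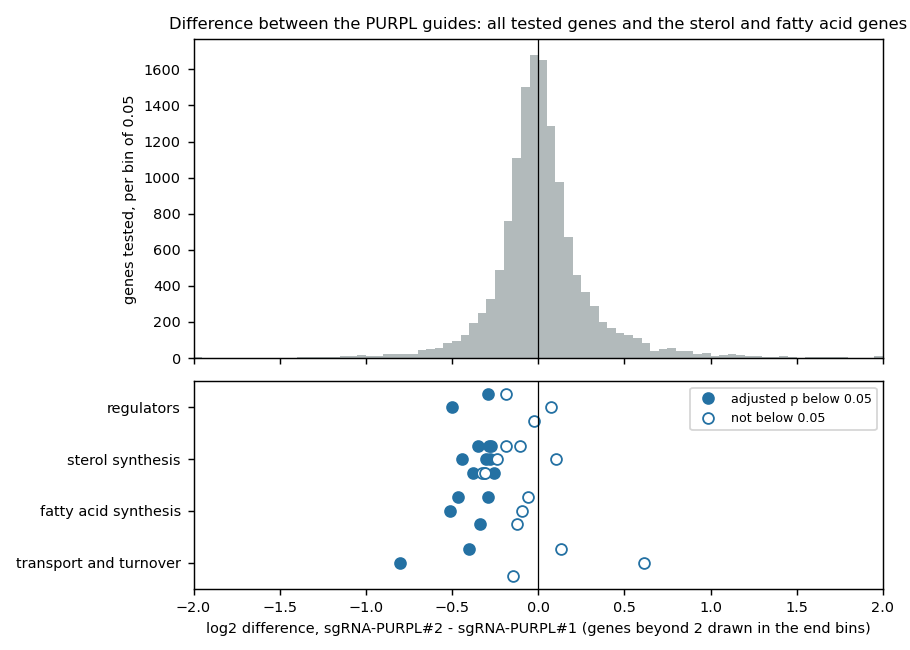
Top: number of the 13923 tested genes (y axis) by log2 difference of sgRNA-PURPL#2 minus sgRNA-PURPL#1 (x axis, bins of 0.05). Bottom: the 32 tested members on the same axis, in rows by role and spread vertically for legibility, filled where the adjusted p was below 0.05. The 17 filled points all lie left of 0, while the distribution over all genes is centred near 0.

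Among the regulators, neither transcription factor gene was called with guide 1. SREBF1 (ENSG00000072310.18, chr17:17810399-17837002 on the minus strand) makes SREBP-1, which acts mainly on fatty acid genes. It measured 35.9, 34.9 and 31.2 CPM with sgCtrl, 34.1, 35.1 and 38.0 with guide 1, and 30.0, 27.6 and 30.0 with guide 2. Guide 2 lay below both other groups in every library, by -0.29 ± 0.0819 from guide 1 (adjusted p = 0.0203) and -0.22 ± 0.0823 from control (adjusted p = 0.053). The first of these calls was lost without sgRNA-PURPL#1 replicates 2 or 3 or sgRNA-PURPL#2 replicates 1 or 2 (adjusted p = 0.0511 to 0.135), and by DESeq2 (adjusted p = 0.0603). SREBF2 (ENSG00000198911.12, chr22:41833079-41907307 on the plus strand), whose product acts mainly on sterol genes, measured 86.7, 92.8 and 90.9 CPM with sgCtrl, 92.9, 92.7 and 84.3 with guide 1, and 85.1, 77.4 and 74.5 with guide 2. Its guide 2 libraries lay under all 3 controls (-0.19 ± 0.0665, adjusted p = 0.0341), a call lost without sgCtrl replicate 2 or sgRNA-PURPL#2 replicates 2 or 3 (adjusted p = 0.11 to 0.182), and by DESeq2 (adjusted p = 0.0604). The microRNA genes MIR33B and MIR33A overlap SREBF1 and SREBF2 on the same strand, over 0.609% and 0.093% of their spans (for SREBF1 with MIR6777).

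SCAP, the escort, and INSIG2, a sterol-responsive anchor, were not called with either guide. SCAP (ENSG00000114650.21, chr3:47413681-47477126 on the minus strand) measured 28.8, 32.4 and 24.8 CPM with sgCtrl, 25.4, 26.5 and 21.8 with guide 1 and 26.2, 21.9 and 29.5 with guide 2, 3 overlapping groups. INSIG2 (ENSG00000125629.16, chr2:118088452-118110997 on the plus strand) measured 22.7, 22.9 and 21.8, then 19.5, 18.4 and 21.0, then 20.2, 19.7 and 18.1 CPM. All 6 guide libraries of INSIG2 lay below the 3 controls, with differences of -0.20 ± 0.0919 (adjusted p = 0.123) and -0.22 ± 0.0921 (adjusted p = 0.0831) that did not pass.

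INSIG1 (ENSG00000186480.13, chr7:155297776-155310235 on the plus strand) had the largest difference between the guides among the regulators. It measured 125, 109.6 and 107 CPM with sgCtrl, 135, 134 and 140.5 with guide 1, and 99.7, 92.1 and 97.5 with guide 2. The 3 groups did not overlap, with control in the middle. Guide 1 lay above control by 0.26 ± 0.0647 (adjusted p = 0.00316) and guide 2 below it by -0.24 ± 0.0658 (adjusted p = 0.00759). Between the guides the log2 difference was -0.50 ± 0.0654 (adjusted p = 2.46e-06), a level with guide 2 of 0.708 times that with guide 1. The guide 2 call against control was lost without sgRNA-PURPL#2 replicate 2 (adjusted p = 0.0546).

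Among sterol synthesis enzymes HMGCS1 (ENSG00000112972.15, chr5:43287470-43313512 on the minus strand), the HMG-CoA synthase at the entry of the mevalonate pathway, had the largest called difference with guide 1. It measured 134, 129 and 127 CPM with sgCtrl, 184, 186 and 191 with guide 1, and 146, 148 and 147 with guide 2. No 2 groups overlapped, and both guides lay above control. The log2 differences from control were 0.53 ± 0.0574 (adjusted p = 2.00e-08) and 0.18 ± 0.0578 (adjusted p = 0.0225), and guide 2 was lower than guide 1 by -0.35 ± 0.0571 (adjusted p = 6.64e-05). The guide 2 call was lost without sgCtrl replicate 2 or any guide 2 library (adjusted p = 0.0535 to 0.0803).

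IDI1 (ENSG00000067064.13, chr10:1039152-1049119 on the minus strand), the isomerase that makes the activated 5-carbon unit of sterols, measured 126.0, 118.7 and 122.8 CPM with sgCtrl, 142, 162 and 150.2 with guide 1, and 112, 111 and 111 with guide 2. Guide 1 lay above control by 0.30 ± 0.0612 (adjusted p = 3.27e-04). Guide 2 lay below all controls but was not called (-0.14 ± 0.062, adjusted p = 0.101), and below guide 1 by -0.44 ± 0.0616 (adjusted p = 5.27e-06). Squalene epoxidase, SQLE, the enzyme that adds oxygen to squalene, went from 108 ± 7.36 (SD, n = 3) to 131 ± 5.10 CPM with guide 1 and stayed at 108 ± 1.37 with guide 2. MSMO1, a demethylating oxidase, went from 71.5 ± 1.49 to 86.9 ± 2.79 and 69.9 ± 1.92 CPM, and FDPS, the farnesyl diphosphate synthase, from 157 ± 13.9 to 182 ± 3.69 and 152.5 ± 2.68 CPM (SD, n = 3 each). In these 4 enzymes guide 1 was higher than control and than guide 2, and guide 2 was not called against control. The guide 1 call of FDPS was lost without sgCtrl replicate 2 or sgRNA-PURPL#1 replicates 2 or 3 (adjusted p = 0.0544 to 0.0727).

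ACAT2, the thiolase of the first step, DHCR7, a sterol reductase, and SC5D, a desaturase, had the same calls, with guide 1 differences from control of 0.24 ± 0.0755, 0.24 ± 0.0744 and 0.20 ± 0.070. Each of these guide 1 calls was lost without sgCtrl replicate 2 or sgRNA-PURPL#1 replicates 2 or 3, and those of ACAT2 and SC5D also without sgCtrl replicate 3 (adjusted p = 0.0578 to 0.167 over these). That of SC5D was also lost without sgRNA-PURPL#2 replicate 1 and, with the replicate number as a block, at an adjusted p of 0.0512. Between the guides SC5D was lost without sgRNA-PURPL#1 replicates 2 or 3 or sgRNA-PURPL#2 replicate 3, and DHCR7 without sgRNA-PURPL#1 replicate 2 (adjusted p = 0.0504 to 0.0913). MVD, the decarboxylase that closes the mevalonate steps, rose with guide 1 by 0.39 ± 0.134 (adjusted p = 0.0306) and lay lower with guide 2 by -0.33 ± 0.133 (adjusted p = 0.138), which did not pass. The guide 1 call of MVD was lost without sgCtrl replicates 1 or 2 or sgRNA-PURPL#1 replicates 2 or 3 (adjusted p = 0.0717 to 0.127). LSS, the synthase that closes the sterol rings, was not called with guide 1 (0.06 ± 0.065) and fell with guide 2 (-0.22 ± 0.0659, adjusted p = 0.0161). The LSS call was lost without sgCtrl replicate 2 or sgRNA-PURPL#2 replicates 1 or 2 (adjusted p = 0.0526 to 0.118). The kinases MVK and PMVK, the dehydrogenases NSDHL and HSD17B7 and the squalene synthase FDFT1 were called in no comparison of this table. FDFT1 varied between its own replicates, from 28.2 to 47.3 CPM with guide 1.

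In fatty acid synthesis SCD (ENSG00000099194.6, chr10:100347233-100364826 on the plus strand), the desaturase that makes oleate, had the largest called difference with guide 1. It measured 463, 484 and 516 CPM with sgCtrl, 749, 732 and 702 with guide 1, and 495, 521 and 517 with guide 2. Guide 1 stood apart from the other 6 libraries, while guide 2 overlapped control. Guide 1 was 1.49-fold above control (0.58 ± 0.0576, adjusted p = 3.60e-09). With guide 2 the difference from control was 0.07 ± 0.0576 (95% interval -0.05 to 0.18), and guide 2 was lower than guide 1 by -0.51 ± 0.0575 (adjusted p = 1.96e-07).

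FASN (ENSG00000169710.9, chr17:82078338-82098294 on the minus strand), fatty acid synthase itself, measured 97.9, 119 and 102 CPM with sgCtrl, 121, 124 and 134 with guide 1, and 91.1, 89.5 and 93.9 with guide 2. As with INSIG1, control lay in the middle and no 2 groups overlapped. The differences were 0.25 ± 0.0681 for guide 1 (adjusted p = 0.00657), -0.21 ± 0.0692 for guide 2 (adjusted p = 0.0228) and -0.46 ± 0.0687 between the guides (adjusted p = 1.49e-05). Without sgCtrl replicate 2, the highest control, the guide 2 value was -0.12 (adjusted p = 0.24), and that call was also lost without sgRNA-PURPL#2 replicates 1 or 2 (adjusted p = 0.0709 and 0.0886). The guide 1 call was lost without sgRNA-PURPL#1 replicate 3 (adjusted p = 0.0672).

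FADS1 (ENSG00000149485.19, chr11:61799627-61829318 on the minus strand), the delta-5 desaturase of polyunsaturated fatty acids, measured 80.3, 79.6 and 81.7 CPM with sgCtrl, 102, 105 and 112 with guide 1, and 88.0, 80.2 and 84.6 with guide 2. Guide 1 stood above the rest (0.40 ± 0.0627, adjusted p = 1.13e-05) and guide 2 was lower than guide 1 by -0.33 ± 0.0625 (adjusted p = 3.67e-04). The delta-6 desaturase FADS2, whose span on the plus strand contains that of FADS1, had the same calls (0.34 ± 0.0664 and -0.29 ± 0.0663). The second was lost without sgRNA-PURPL#1 replicate 2 (adjusted p = 0.0516). FADS2 shares 5.73% of its span with the coding gene FEN1 on the same strand, so its counts are uncertain in both experiments. How reads in the span shared by FADS1 and FADS2 were counted depends on the strand setting, which is not stated. ACACA, acetyl-CoA carboxylase, rose with both guides (0.34 ± 0.091 and 0.28 ± 0.0912), from control values of 53.2, 73.8 and 76.5 CPM. Without the lowest of these, sgCtrl replicate 1, the ACACA values were 0.19 (adjusted p = 0.0232) and 0.13 (adjusted p = 0.127), and the guide 2 call was also lost without any guide 2 library (adjusted p = 0.0655 to 0.0882). The elongase ELOVL6 fell with guide 2 (-0.36 ± 0.0943, adjusted p = 0.00489), and the citrate lyase ACLY was not called.

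**Figure D3:**
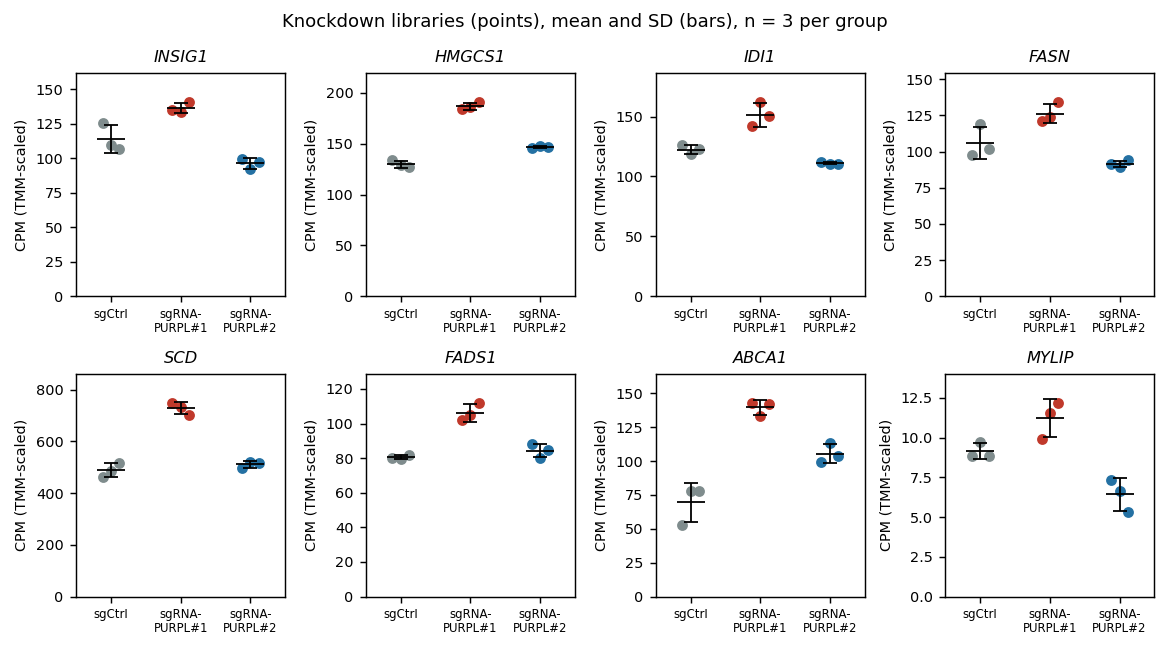
Level of 8 members in each knockdown library (y axis, TMM-scaled CPM from 0; points), with mean and SD of the 3 libraries per group (bars; x axis, groups). In INSIG1, IDI1, FASN and MYLIP the sgCtrl points lie between the guides, and in SCD and FADS1 guide 1 alone stands apart.

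The transport genes did not share 1 direction. ABCA1 (ENSG00000165029.17, chr9:104781006-104928155 on the minus strand), the exporter that loads cholesterol onto apolipoprotein A-I, measured 53.1, 77.7 and 78.1 CPM with sgCtrl, 143, 133 and 142 with guide 1, and 99.4, 113 and 104 with guide 2. Both guides lay above control in every library and guide 1 above guide 2. The differences from control were 1.00 ± 0.115 (2.00-fold, adjusted p = 2.35e-05) and 0.60 ± 0.116 (1.51-fold, adjusted p = 0.00214), and without sgCtrl replicate 1 they were 0.83 and 0.43. Between the guides ABCA1 differed by -0.40 ± 0.112 (adjusted p = 0.0397), a call lost without 5 of the 6 guide libraries in turn (adjusted p = 0.0661 to 0.142), the exception being sgRNA-PURPL#2 replicate 2.

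MYLIP (ENSG00000007944.15, chr6:16129086-16148248 on the plus strand), the ligase that marks lipoprotein receptors for degradation, had the largest difference between the guides among called members. It measured 8.85, 9.73 and 8.85 CPM with sgCtrl, 9.88, 11.6 and 12.2 with guide 1, and 7.35, 6.63 and 5.32 with guide 2. No groups overlapped, and guide 2 lay at 0.574 times guide 1 (-0.80 ± 0.142, adjusted p = 1.92e-04). Against control, guide 2 fell by -0.51 ± 0.146 (adjusted p = 0.0104) and guide 1 was not called (0.29 ± 0.134, adjusted p = 0.118). The guide 2 call was lost without sgCtrl replicate 2 or sgRNA-PURPL#2 replicate 3 (adjusted p = 0.0521 and 0.0906).

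NPC1 (ENSG00000141458.13, chr18:23506184-23586506 on the minus strand), which releases cholesterol from lysosomes, measured 161, 161 and 160.5 CPM with sgCtrl, 154, 154 and 159 with guide 1, and 137, 139.5 and 145 with guide 2. It fell with guide 2 (-0.20 ± 0.0575, adjusted p = 0.0113; 0.0625 without sgRNA-PURPL#2 replicate 1), while guide 1 was not called (-0.05 ± 0.0572). STARD4 (ENSG00000164211.13, chr5:111496033-111512590 on the minus strand), a cytosolic sterol carrier and an SREBP target, measured 57.2, 71.2 and 75.0 CPM with sgCtrl, 57.0, 61.0 and 60.6 with guide 1, and 63.8, 63.2 and 68.4 with guide 2. Between the guides STARD4 lay higher with guide 2, by 0.13 ± 0.0792, which did not pass (adjusted p = 0.383). Its highest mean was with sgCtrl (67.8 CPM, against 65.1 with guide 2 and 59.5 with guide 1). ABCG1 (ENSG00000160179.19, chr21:42199689-42297244 on the plus strand), the exporter to HDL, had 31 counts over the sgCtrl libraries, 30 with guide 1 and 46 with guide 2, and the difference of 0.62 between the guides had a 95% interval from -0.12 to 1.35.

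Promoter sequence was read because members moved together between the guides. RefSeq windows (GRCh38.p14) of 300 bases, 250 before to 50 after a gene's start, were matched by symbol for 29 of the 34 genes. Both strands were searched for CCAAT, the box bound by NF-Y, for CACGTG, the E-box that SREBPs and many other factors can bind, and for TCACNCCAC, a sterol regulatory element. CCAAT was in 17 of 29 windows (58.6%), against 36.8% of the 10272 windows of genes tested in the knockdown table and 34.6% of all 35116 windows. It was in 9 of the 14 members lower with guide 2 than with guide 1 that had a window, and in 7 of 13 not called between the guides. CACGTG was in 5 of 29 (17.2%), against 9.92% of tested genes. By the same split it was in 4 of the 14 and in 1 of the 13, small counts whose difference was not tested. TCACNCCAC was in SREBF2 only, against 1.04% of tested genes.

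Genes for display were picked by name and not by rank, so IDI1, with a larger difference between the guides than HMGCS1, is absent. Shown are windows of HMGCS1, SCD, INSIG1, MYLIP and ABCA1 (lower with guide 2 than guide 1) and of SREBF2, the 1 member with TCACNCCAC. They are HMGCS1 at chr5:43313363-43313662 (minus strand), SCD at chr10:100346983-100347282 (plus strand), INSIG1 at chr7:155297628-155297927 (plus strand), SREBF2 at chr22:41832855-41833154 (plus strand), MYLIP at chr6:16128836-16129135 (plus strand) and ABCA1 at chr9:104928106-104928405 (minus strand). Each is written 5′ to 3′ on the gene's strand, with matches to the 3 motifs in capitals, where ATTGG is CCAAT on the other strand.
HMGCS1: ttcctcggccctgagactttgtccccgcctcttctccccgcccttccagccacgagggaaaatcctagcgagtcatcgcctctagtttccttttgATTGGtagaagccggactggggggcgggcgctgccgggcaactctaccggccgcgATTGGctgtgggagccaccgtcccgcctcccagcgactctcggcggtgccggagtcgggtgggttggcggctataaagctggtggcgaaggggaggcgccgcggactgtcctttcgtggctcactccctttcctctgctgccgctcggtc
SCD: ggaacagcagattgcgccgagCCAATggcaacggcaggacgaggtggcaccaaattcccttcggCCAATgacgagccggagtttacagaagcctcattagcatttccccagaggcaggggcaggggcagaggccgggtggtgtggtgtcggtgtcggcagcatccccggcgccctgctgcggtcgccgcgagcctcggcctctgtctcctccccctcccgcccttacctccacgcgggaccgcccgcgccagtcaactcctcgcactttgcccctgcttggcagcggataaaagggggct
INSIG1: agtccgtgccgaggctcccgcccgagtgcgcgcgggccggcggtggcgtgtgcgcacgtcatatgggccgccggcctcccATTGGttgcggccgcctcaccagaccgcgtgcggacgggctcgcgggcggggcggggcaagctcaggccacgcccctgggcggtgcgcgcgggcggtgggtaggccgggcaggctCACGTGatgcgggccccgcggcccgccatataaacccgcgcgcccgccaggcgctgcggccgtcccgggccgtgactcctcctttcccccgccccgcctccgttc
SREBF2: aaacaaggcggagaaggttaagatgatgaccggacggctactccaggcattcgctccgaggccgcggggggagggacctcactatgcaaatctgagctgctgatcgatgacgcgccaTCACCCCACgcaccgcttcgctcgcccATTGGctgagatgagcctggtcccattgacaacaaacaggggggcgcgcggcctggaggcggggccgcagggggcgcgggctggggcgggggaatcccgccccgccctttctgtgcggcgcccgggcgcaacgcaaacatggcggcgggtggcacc
MYLIP: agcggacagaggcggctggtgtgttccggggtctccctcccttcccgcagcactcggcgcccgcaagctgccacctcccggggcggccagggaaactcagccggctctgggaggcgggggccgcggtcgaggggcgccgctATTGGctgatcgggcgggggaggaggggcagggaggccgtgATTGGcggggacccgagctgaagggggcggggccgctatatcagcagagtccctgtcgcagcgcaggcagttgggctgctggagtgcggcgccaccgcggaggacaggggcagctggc
ABCA1: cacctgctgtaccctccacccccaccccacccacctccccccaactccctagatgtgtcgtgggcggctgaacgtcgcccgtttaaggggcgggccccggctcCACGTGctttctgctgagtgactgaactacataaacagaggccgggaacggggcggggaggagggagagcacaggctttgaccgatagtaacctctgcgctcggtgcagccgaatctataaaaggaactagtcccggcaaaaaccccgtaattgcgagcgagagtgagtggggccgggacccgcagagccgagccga
HMGCS1, SCD and MYLIP hold 2 CCAAT matches each, INSIG1 holds 1 and a CACGTG, SREBF2 holds 1 beside its TCACNCCAC, and ABCA1 holds a CACGTG alone. A match is a run of letters and not a measured site, and no factor's binding was measured.

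Overexpression of PURPL was compared with its own control. In line 1, 4 of 33 members rose and 13 fell, and in line 2, 7 rose and 11 fell. Over all 15267 genes, line 1 had 19.5% called higher and 20.1% lower, and line 2 had 18.9% and 19.6%. The share of members called lower (39.4% and 33.3%) lay above the background and that called higher in line 1 (12.1%) below it. The share called higher in line 2 (21.2%) lay near the background. Among members with a mean of at least 10 CPM, line 1 had 4 of 26 higher and 11 lower (25.9% and 24.3% of genes at that level), and line 2 had 7 and 10 (25.5% and 23.4%). Medians were -0.15 and -0.07 (all genes 0.00763 and 0.00689). The same 11 members fell in both lines: INSIG1, HMGCS1, ACAT2, IDI1, LSS, MSMO1, SCD, ELOVL6, STARD4, ABCG1 and NPC1. ABCA1, FADS2 and MYLIP rose in both, and 0 had opposite calls. The lines share the Ctrl libraries.

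**Figure D4:**
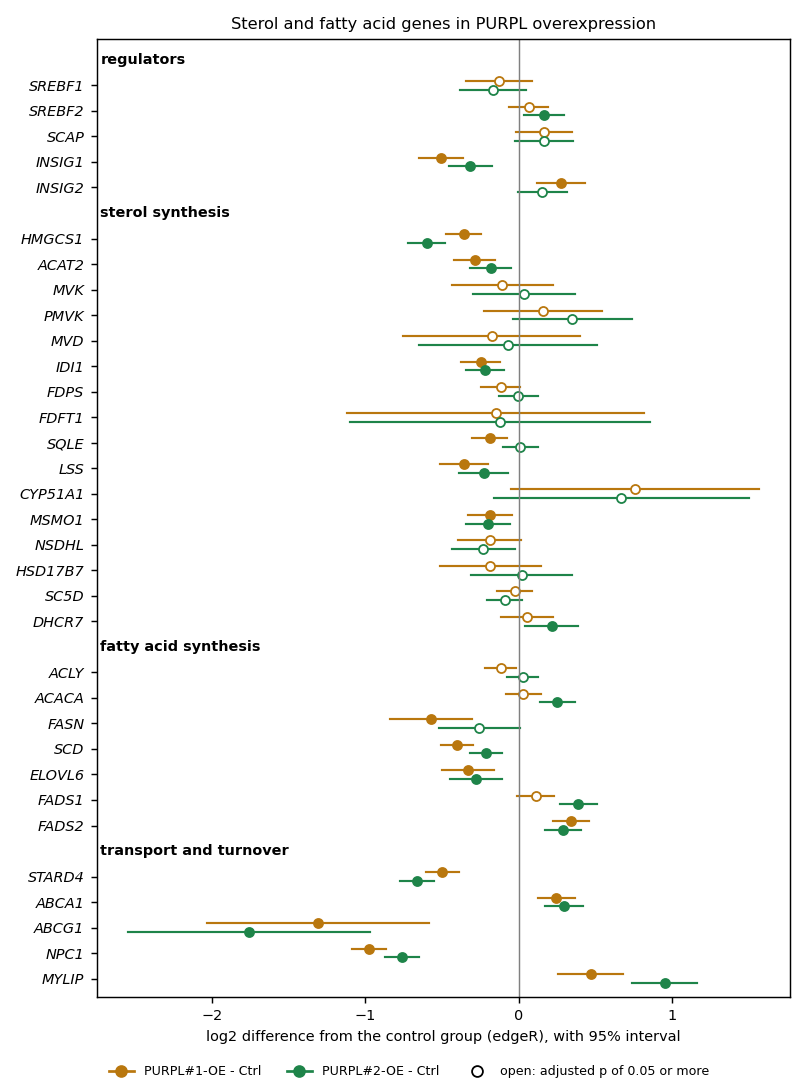
Log2 difference of each member from Ctrl in PURPL#1-OE and PURPL#2-OE (x axis, points with 95% intervals from edgeR), ordered by role (y axis), with open points where the adjusted p was 0.05 or more. NPC1, STARD4, HMGCS1 and INSIG1 lie left of 0 in both lines and MYLIP, ABCA1 and FADS2 right of it.

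NPC1 had the smallest adjusted p in both lines. It measured 115, 116 and 108 CPM in Ctrl, 58.6, 57.7 and 55.8 in line 1, and 68.3, 67.2 and 64.9 in line 2. Both lines lay below every control, at 0.508 and 0.591 times its level (-0.98 ± 0.0545, adjusted p = 2.89e-15 and -0.76 ± 0.0544, adjusted p = 1.17e-12). STARD4 measured 106, 104 and 103 CPM in Ctrl, 76.8, 73.4 and 71.2 in line 1, and 67.5, 63.8 and 66.3 in line 2, again with both lines under control (-0.50 ± 0.0534 and -0.66 ± 0.0541, adjusted p = 5.93e-09 and 2.28e-11). ABCG1 had 86 counts over the Ctrl libraries, 37 in line 1 and 23 in line 2, about 1 CPM or less. Its levels of 1.36, 1.09 and 1.19 CPM in Ctrl did not overlap those of 0.644, 0.45 and 0.356 in line 1 or 0.426, 0.37 and 0.287 in line 2 (-1.31 ± 0.353 and -1.76 ± 0.384, adjusted p = 0.00354 and 4.71e-04).

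ABCA1 and MYLIP, also LXR targets, moved the other way from ABCG1. ABCA1 measured 129, 121 and 144 CPM in Ctrl, 149, 164 and 155 in line 1, and 155, 158 and 169.9 in line 2, and rose by 0.25 ± 0.0594 and 0.29 ± 0.0596 (adjusted p = 0.00138 and 2.11e-04). MYLIP measured 10.2, 11.4 and 11.7 CPM in Ctrl, 14.4, 15.6 and 16.1 in line 1, and 24.7, 18.6 and 21.1 in line 2. The 3 groups of MYLIP did not overlap, and it rose in line 1 by 0.47 ± 0.104 (1.38-fold, adjusted p = 5.57e-04) and in line 2 by 0.95 ± 0.103 (1.93-fold, adjusted p = 8.25e-09).

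Among sterol enzymes, 6 of 16 fell in line 1 and 5 in line 2. HMGCS1 measured 79.5, 73.5 and 78.2 CPM in Ctrl, 61.7, 58.5 and 59.9 in line 1, and 50.3, 49.3 and 52.7 in line 2. Every library of line 2 lay below every library of line 1, and those below Ctrl, with differences from control of -0.36 ± 0.0566 and -0.60 ± 0.0577 (adjusted p = 5.54e-06 and 7.15e-10). IDI1 measured 67.3, 67.9 and 59.5 CPM in Ctrl, 56.6, 53.7 and 53.7 in line 1, and 55.2, 53.8 and 58.3 in line 2. Both lines were called lower (-0.25 ± 0.0611 and -0.22 ± 0.0615, adjusted p = 0.00149 and 0.00486), and IDI1 did not differ between them past the threshold (95% interval -0.10 to 0.15).

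LSS (-0.36 and -0.23), ACAT2 (-0.29 and -0.18) and MSMO1 (-0.19 and -0.20) fell in both lines too, and SQLE in line 1 alone (-0.19 and 0.01). Of these, the MSMO1 call in line 2 was -0.11 (adjusted p = 0.223) without 1 unnumbered library of that line and was lost without Ctrl replicate 3 (adjusted p = 0.104). The line 1 call of MSMO1 was lost without Ctrl replicates 1 or 3 or 2 of the line 1 libraries in turn (adjusted p = 0.0514 to 0.148) and by DESeq2 (adjusted p = 0.0646), and that of SQLE without Ctrl replicate 1 (adjusted p = 0.0534). ACAT2 and LSS lost their line 2 calls without Ctrl replicates 2 or 3 or PURPL#2-OE replicate 3 (adjusted p = 0.0538 to 0.11). DHCR7 rose in line 2 (0.21 ± 0.0834, adjusted p = 0.0425), and that call was lost under 9 of the alternatives tried, among them DESeq2 (adjusted p = 0.0911) and the removal of Ctrl replicates 1 or 3 (adjusted p = 0.167 and 0.134). CYP51A1, tested in this table on 33, 59 and 48 counts, was not called (0.76 ± 0.395 and 0.67 ± 0.406).

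In fatty acid synthesis SCD measured 386, 364 and 398 CPM in Ctrl, 279, 300.0 and 289.9 in line 1, and 330.3, 324 and 335 in line 2. Both lines lay below every control, line 1 further (-0.40 ± 0.0506, adjusted p = 1.27e-07) than line 2 (-0.22 ± 0.0506, adjusted p = 0.00103). FASN measured 7.17, 9.34 and 7.80 CPM in Ctrl, 6.26, 4.90 and 5.14 in line 1, and 6.72, 6.90 and 6.76 in line 2, and only line 1 was called (-0.57 ± 0.131, adjusted p = 7.39e-04; line 2 -0.26 ± 0.13, adjusted p = 0.122). FADS1 went the other way, at 95.1, 92.2 and 90.0 CPM in Ctrl, 93.1, 106 and 101 in line 1, and 111, 122 and 129 in line 2. Line 2 stood above the other 6 libraries (0.39 ± 0.059, adjusted p = 3.66e-06), and line 1 was not called (0.11 ± 0.059, adjusted p = 0.14). FADS2 rose in both (0.34 ± 0.0578 and 0.29 ± 0.0581), ACACA in line 2 (0.25 ± 0.0558), and ELOVL6 fell in both (-0.33 ± 0.0818 and -0.28 ± 0.0826). The ELOVL6 call in line 2 was lost without Ctrl replicate 1 or 1 unnumbered library of line 2 (adjusted p = 0.0593 and 0.0565).

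Of the regulators, INSIG1 fell in both lines. It measured 79.1, 79.3 and 90.5 CPM in Ctrl, 63.1, 58.2 and 53.5 in line 1, and 72.1, 61.4 and 66.5 in line 2 (-0.51 ± 0.0686 and -0.32 ± 0.0687, adjusted p = 6.97e-07 and 5.16e-04). INSIG2 measured 24.7, 21.8 and 22.9 CPM in Ctrl, 27.8, 27.2 and 29.1 in line 1, and 25.2, 24.9 and 27.1 in line 2, and rose in line 1 (0.28 ± 0.0768, adjusted p = 0.00468). The paralogs, which both retain SCAP, thus had opposite calls in line 1, though the difference between them was not tested. SREBF2 measured 55.8, 61.2 and 51.2 CPM in Ctrl, 58.95, 60.7 and 56.5 in line 1, and 64.3, 64.3 and 60.5 in line 2. Its line 2 difference of 0.17 ± 0.0634 (adjusted p = 0.0381) was 0.11 (adjusted p = 0.208) without Ctrl replicate 3 and was lost in 7 other alternatives. SREBF1 measured 14.5, 14.7 and 13.99 CPM in Ctrl, 15.2, 12 and 12.2 in line 1, and 14.6, 12.1 and 11.96 in line 2, and was not called in either. SCAP, at 15.4 to 16.6 CPM in Ctrl, 16.1 to 19.1 in line 1 and 17.0 to 18.5 in line 2, was not called either.

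**Figure D5:**
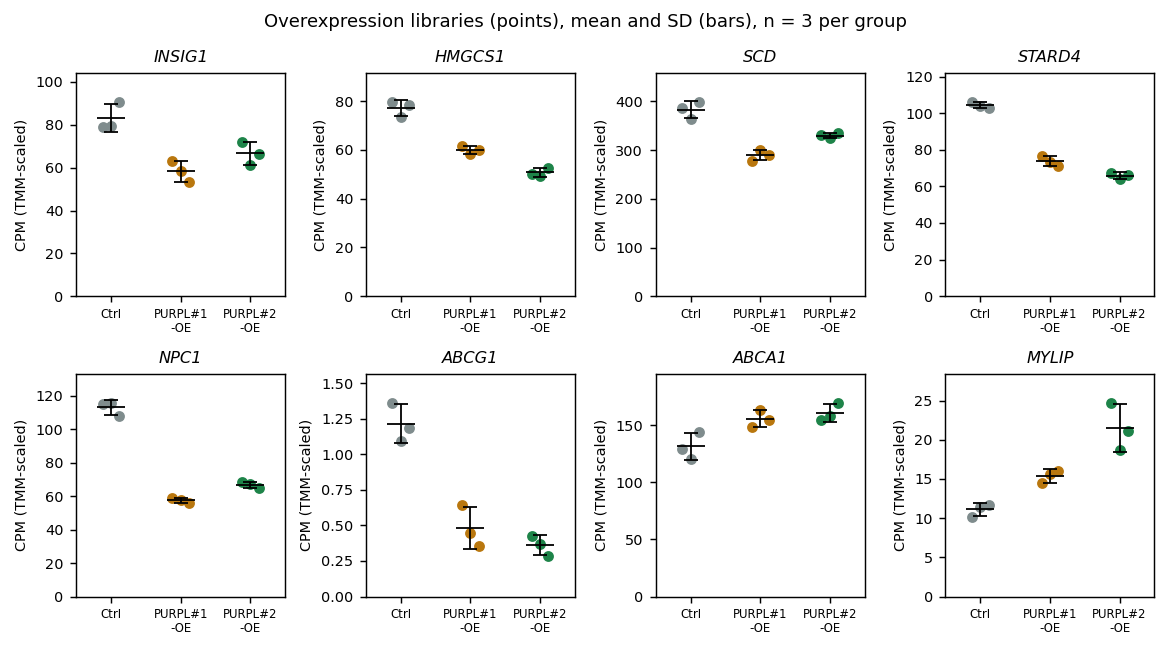
Level of 8 members in each overexpression library (y axis, TMM-scaled CPM from 0; points), with mean and SD of the 3 libraries per group (bars; x axis, groups). Both lines lie below Ctrl in NPC1 and HMGCS1 and above it in MYLIP.

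Between the lines 6 members were higher in line 2 (SQLE, ACACA, SCD, FADS1, NPC1 and MYLIP) and 2 were lower (HMGCS1 and STARD4). These were 18.2% and 6.06% of the members tested, against 6.18% and 6.19% of all genes. The share lower thus lay near that of all genes. PURPL was lower in line 2 than in line 1 (-0.50 ± 0.0571, adjusted p = 1.81e-07). The difference was 0.48 ± 0.0994 for MYLIP, 0.27 ± 0.0586 for FADS1, 0.22 ± 0.0557 for NPC1, 0.19 ± 0.0507 for SCD and -0.24 ± 0.0581 for HMGCS1. The STARD4 call (-0.17 ± 0.0546, adjusted p = 0.0437) was lost without any of 7 libraries in turn (adjusted p = 0.0611 to 0.221). Leaving out 1 unnumbered line 1 library brought the 6 down to 3, as SQLE, SCD and NPC1 no longer passed (adjusted p = 0.0519 to 0.0570). Other calls between the lines were lost in single libraries too: ACACA and SCD without a different line 1 library (adjusted p = 0.0768 and 0.0962), and SQLE without 1 more line 1 and 1 line 2 library (adjusted p = 0.0824 and 0.107).

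A joint fit of all 18 libraries asked whether the mean response to the guides differed from the mean response to the lines, each against its own control. Of 33 members, 13 had a higher value with the guides (39.4%) and 4 a lower one (12.1%), against 18% and 15.6% of 15166 genes. The share with a lower value thus did not exceed that of all genes. The 13 were INSIG1, HMGCS1, ACAT2, IDI1, SQLE, LSS, MSMO1, FASN, SCD, STARD4, ABCA1, ABCG1 and NPC1, and the 4 were SREBF2, SCAP, INSIG2 and MYLIP. The difference of responses was 0.84 ± 0.0685 for HMGCS1 (adjusted p = 1.09e-13), 0.75 ± 0.0669 for NPC1 (adjusted p = 1.58e-12), 0.64 ± 0.0685 for SCD (adjusted p = 3.08e-10) and -0.81 ± 0.152 for MYLIP (adjusted p = 3.21e-05). The 4 came down to 2 without sgCtrl replicate 2, sgRNA-PURPL#1 replicate 3, sgRNA-PURPL#2 replicate 2 or Ctrl replicate 3, since SREBF2 and SCAP no longer passed (adjusted p = 0.0533 to 0.182). In all, the SREBF2 call was lost without any of 11 libraries in turn, with total counts in place of TMM (adjusted p = 0.125) and without the filter on low counts (adjusted p = 0.0670), over a range of 0.0553 to 0.182. The SCAP call was lost without any of 6 libraries in turn, Ctrl replicate 2 and a line 1 library among them, and with total counts (adjusted p = 0.0517 to 0.168). The LSS call was lost without any of 8 libraries in turn (adjusted p = 0.0520 to 0.104) and by DESeq2 (adjusted p = 0.0662). It was also lost with RLE scaling in place of TMM (adjusted p = 0.0538) and without the filter on low counts (adjusted p = 0.0950). The ACAT2 call was lost without sgCtrl replicate 3 (adjusted p = 0.0668). This contrast averages the guides, which differed from each other in 11 of the 17 members called here.

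Member by member, 8 genes rose with guide 1, were lower with guide 2 than with guide 1 and fell in line 1: INSIG1, HMGCS1, ACAT2, IDI1, SQLE, MSMO1, FASN and SCD. These 3 calls held together for 0.748% of the 13638 genes tested in both tables. Both knockdown calls use the guide 1 libraries, so they are not independent. ABCA1 and FADS2 rose with guide 1 and in both lines. Of the 16 members that rose with guide 1, 8 fell and 2 rose in line 1. In line 2, 6 of the 16 fell and 5 rose (ABCA1, FADS2, FADS1, ACACA and DHCR7). Over all genes, 20.1% fell and 19.5% rose in line 1, and 19.6% and 18.9% in line 2. The levels themselves differed between the tables, for example FASN at 106 ± 11.1 CPM with sgCtrl and 8.10 ± 1.12 in Ctrl, and the tables were scaled separately, so only responses are set side by side.

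Of 40 other genes of these pathways, 39 were tested. With guide 1, 9 rose and 6 fell (23.1% and 15.4%, against 11.6% and 12.9% of all genes). With guide 2, 5 rose and 7 fell (12.8% and 17.9%, against 11.9% and 12.4%). Between the guides 6 were lower with guide 2 (15.4%, against 3.74%) and 0 higher (against 5.51%), with 10 and 1 at an unadjusted p below 0.05 and 5 and 0 by DESeq2. In line 1, 7 rose and 6 fell (17.9% and 15.4%, against 19.5% and 20.1%), and in line 2, 14 rose and 6 fell (35.9% and 15.4%, against 18.9% and 19.6%). The shares higher with guide 2 and in line 1 thus lay near those of all genes. IDH1, the cytosolic isocitrate dehydrogenase that supplies NADPH, went from 115 ± 4.52 CPM to 188 ± 15.5 with guide 1 and 165 ± 4.92 with guide 2 (0.71 ± 0.0643 and 0.52 ± 0.0645, adjusted p = 5.52e-10 and 2.51e-07). SCD5, another stearoyl-CoA desaturase, fell with guide 1 (-0.66 ± 0.0869) and guide 2 (-0.40 ± 0.0851) and rose in the lines (0.38 ± 0.0727 and 0.32 ± 0.0736).

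NR1H3, which encodes LXR-alpha, rose with guide 1 (0.61 ± 0.165, adjusted p = 0.00633) and in line 2 (0.49 ± 0.197, adjusted p = 0.0474), at 5.20 ± 1.29 CPM with sgCtrl and 2.48 ± 0.586 in Ctrl (SD, n = 3). The NR1H3 call was lost without sgCtrl replicate 3 for guide 1 (adjusted p = 0.0591), and for line 2 without any of 6 libraries in turn (adjusted p = 0.0524 to 0.236), by DESeq2 (adjusted p = 0.14), with total counts (adjusted p = 0.0756), without the filter (adjusted p = 0.0660) and with only the 2 groups compared (adjusted p = 0.0522). MID1IP1, an activator of acetyl-CoA carboxylase, rose in both lines (0.50 ± 0.0984 and 0.57 ± 0.0992), as did FAXDC2, a sterol oxidase (0.26 ± 0.0713 and 0.55 ± 0.0711).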

How the data were processed

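RNA of 18 libraries of BJ fibroblasts was measured, 3 in each of 6 groups. The authors deposited raw read counts per gene in 2 tables, which were used as deposited. Per the submitters' processing notes, FastQC 0.11.9, cutadapt 3.3, HISAT2 2.1.0, SAMtools 1.11, featureCounts 2.0.1 and DESeq2 1.34.0 were used with builds hg38 and GRCh38.p13. The annotation release and strand setting used are not stated in what was read here. Per the labels' protocols, total RNA was poly(A)-selected and amplified by PCR, with no molecular identifiers, so the limit given for a count of 0 covers counting error only.

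Each table of 9 libraries was fitted with edgeR 4.0.16 in R 4.3.3 (quasi-likelihood test, TMM scaling, filterByExpr with a minimum count of 10, 6 residual degrees of freedom), with Benjamini-Hochberg adjustment over all genes and a threshold of 0.05. All adjusted p-values are from this test unless another is named. Values after ± are standard errors of log2 differences, or SD where stated. These errors and the 95% intervals come from the fit and include the spread among libraries. A joint fit of both tables compared the responses. For the lines, 5 columns are unnumbered and were placed by group. The fits were tested on simulated counts with known changes. At a log2 change of 0.5, 68% of 100 changed genes were recovered for guide 1 against control and 56.6% of 99 for line 1. At a log2 change of 1 the shares were 87.6% and 88.7%. A member that was not called may therefore still have changed. Libraries of 1 group differed by a chi-square per gene of 2.43 to 10.3 (knockdown) or 3.47 to 8.56 (overexpression), so none counted as a duplicate. Members and gene lists were chosen with earlier results of these data known. Values per library are given for the 5 regulators and for members called with a log2 difference of 0.4 or more within a table, and for other pathway genes the 3 largest called per table are named. Alternatives were DESeq2 1.42.0, other scaling, no filter, 2 groups only, a replicate block and leaving out each library. Marker lists of 6 cell types were read; keratinocyte markers summed to at most 14.7 CPM and melanocyte, endothelial and immune markers to at most 5.18 CPM each.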

Additional observations from a re-analysis of the deposited data

Results flagged for a closer look

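In 17 members the responses to the 2 guides differed by a direct test (edgeR, adjusted over all genes), each lower with sgRNA-PURPL#2. On the log2 scale the differences of the sterol enzymes were -0.35 for HMGCS1, -0.38 for ACAT2, -0.44 for IDI1, -0.25 for FDPS, -0.29 for SQLE, -0.28 for LSS, -0.31 for MSMO1, -0.27 for SC5D and -0.30 for DHCR7. Those of the fatty acid enzymes were -0.46 for FASN, -0.51 for SCD, -0.33 for FADS1 and -0.29 for FADS2. Among regulators and transport genes they were -0.29 for SREBF1, -0.50 for INSIG1, -0.40 for ABCA1 and -0.80 for MYLIP.

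In 8 members the responses of the 2 overexpression lines differed by the same test. PURPL#2-OE was higher by 0.22 for ACACA, 0.27 for FADS1, 0.48 for MYLIP, 0.22 for NPC1, 0.19 for SCD and 0.20 for SQLE. It was lower for HMGCS1 (-0.24) and STARD4 (-0.17).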

How the results depend on the processing

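Of 103 member calls, 67 were kept under every alternative run, and of 1621 alternative values 1476 kept the call, 145 lost it and 0 changed direction. Of 559 alternative counts, 519 stayed within 1.5 times the reported one. With only the members free of same-strand overlap (added once the data had been seen, with fewer genes by construction), 4 fell with guide 2, 2 rose in line 1, 2 rose in line 2, 2 were higher in line 2 than in line 1, and 2 had a lower response to the guides than to the lines. Without the filter on low counts 1 member was lower in line 2 than in line 1 and 3 other pathway genes were higher, and with total counts in place of TMM 2 members had a lower response to the guides; the cause was not tested. With only the 2 groups compared 1 other pathway gene was higher with guide 2 than with guide 1. Leaving out 1 library at a time gave 10 to 16 members higher and 0 to 2 lower with guide 1, 1 to 3 higher and 3 to 9 lower with guide 2, 3 to 8 higher and 1 to 2 lower in line 2 against line 1, and 2 to 4 with a lower response to the guides. For the other pathway genes it gave 3 to 6 lower with guide 1, 3 to 5 higher with guide 2, 0 to 1 higher with guide 2 than with guide 1, and 1 to 6 higher and 1 to 2 lower in line 2 against line 1.

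The labels do not say whether same-numbered knockdown libraries shared a culture or batch. Their deviations from the group means correlated at -0.11 to 0.045, and 1 of 9 lay closest to its own number. Such a check over all genes cannot exclude a shared batch. With the replicate number as a block, 15 members rose with guide 1 and 17 were lower with guide 2 than with guide 1. For the overexpression table alone: No paired analysis was possible because most columns of its lines are unnumbered. At this depth genes of under about 1 CPM, such as ABCG1 and CYP51A1, have wide intervals.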
